A study of Drosophila montana and Drosophila virilis with 10 samples.

Results

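Cold acclimation was examined in Drosophila montana alone, as 3 libraries from acclimated flies against 3 from flies kept at ambient temperature. These are 6 of the 10 libraries of the series and were chosen by their sample titles. The other 4 libraries are of a related species and were not used. RNA came from pools of 10 whole flies, 1 pool for each library, all of strain 175OJ8, which originates from Oulanka in Finland. Libraries were sequenced on SOLiD instruments. The stated ages were 21, 22 and 23 days after eclosion in control pools 1, 2 and 3, and 24, 25 and 26 days in acclimated pools 1, 2 and 3, so acclimation and stated age cannot be told apart. The ages run on in steps of 1 day through all 10 libraries in deposit order, up to 30 days, so whether they are the true ages is uncertain. The labels give neither the temperature and length of the acclimation nor the sex of the flies. Since they also do not say whether the pools came from separate cultures, p-values rest on differences between pools whose biological independence is not known.

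Cold acclimation is the rise in cold tolerance that insects gain from a period at low, non-lethal temperature. In Drosophila it is known to involve remodelling of membrane lipids, cryoprotectant sugars, polyols and amino acids, and the maintenance of ion balance in the cold. D. montana is a northern species whose adults overwinter in reproductive diapause. The count files give gene identifiers without names, and the table of gene names used here holds 0 of the 15342 identifiers. Results are therefore given by identifier, and the functions of the genes that moved are not described. With whole flies, fewer cells of a type and less RNA per cell cannot be told apart in any of these results.

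Reads assigned to identifiers numbered 1518027 to 2235850 per library, and 9315 identifiers had enough reads to be tested. Levels are given in CPM, reads scaled to a fixed library total. An identifier without a read could still have had 1.34 to 1.93 CPM, depending on the library (3 counts of its total, counting error only). No replicate pair was closer than sampling noise allows: the chi-square per degree of freedom was at least 3.77 for every pair within a group. Correlations of log2 CPM were 0.963 to 0.971 between control libraries, 0.963 to 0.977 between acclimated libraries and 0.942 to 0.964 between the groups. The largest component of variation, 36.8% of the variance, put the controls at −27.4, −18.5 and −4.4 and the acclimated libraries at 23.5, 15.04 and 11.8. All acclimated libraries lay on one side of it, and control 3 was the control closest to them. The second component, 21.6% of the variance, did not follow the groups. It put control 2, control 3 and acclimated 1 on one side and the remaining libraries on the other.

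**Figure D1:**
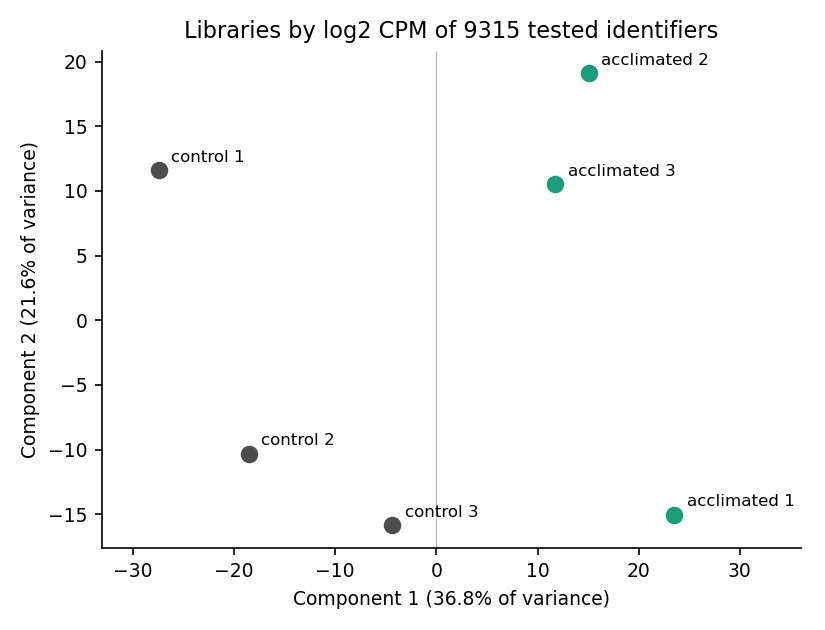
Each point is 1 D. montana library placed by the first (x axis) and second (y axis) principal component of log2 CPM over the tested identifiers, in arbitrary units. Controls are grey and acclimated libraries green. The groups do not overlap on component 1, where control 3 is at −4.4 and the nearest acclimated library at 11.8.

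Of 9315 tested identifiers, 156 (1.67%) passed edgeR's quasi-likelihood test at a Benjamini-Hochberg adjusted p under 0.05, of which 108 (1.16%) rose and 48 (0.515%) fell. The falls held more of the large changes. A change of at least 4-fold was seen in 11 of the 48 that fell and in 3 of the 108 that rose. Changes of 2-fold to 4-fold were seen in 27 and 60 identifiers, and changes of 1.5-fold to 2-fold in 10 and 45. In each of the 156 the 3 acclimated libraries lay wholly above or wholly below the 3 controls, which a call from the same 6 libraries itself favours. Over all tested identifiers the groups did not overlap for 18.6%, with the acclimated libraries above for 9.53% and below for 9.08%.

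**Figure D2:**
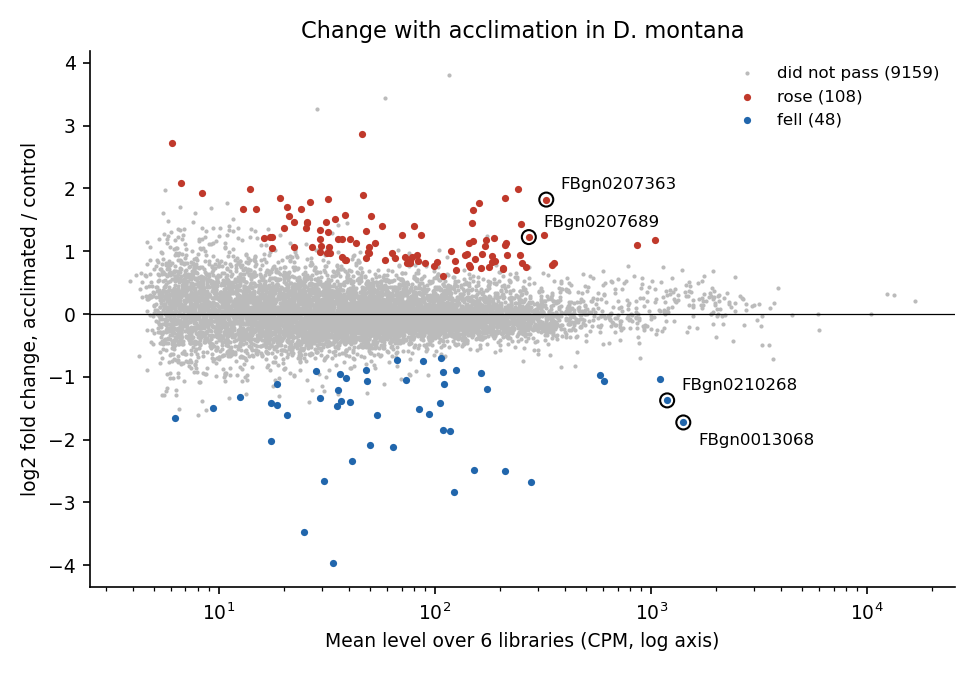
Each point is 1 tested identifier, with its mean level over 6 libraries in CPM on a log axis (x) and its log2 fold change, acclimated over control (y). The 108 identifiers that rose are red, the 48 that fell are blue and those that did not pass are grey; circles mark the 4 identifiers described by name.

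The scaling sets the median log2 fold change near 0 (−0.01), so changes are relative to the bulk of identifiers. The middle 50% of identifiers lay between −0.19 and 0.21. The tails were longer upward than downward, with a 99th percentile of 1.19 against a 1st percentile of −0.95. At an unadjusted p under 0.05 there were 1247 identifiers (13.4%), 725 of them higher (7.78%) and 522 lower (5.6%) in acclimated flies. Most identifiers could be bounded. For 79.3% of them the 95% interval of the change lay within a 2-fold change in either direction, and for 37.2% within a 1.5-fold change. The bound depended on read number. Ranked by mean CPM, 52.7% of the 3105 identifiers with the fewest reads were held within 2-fold, against 90.7% of the next 3105 and 94.5% of the 3105 with the most reads. The median standard error of the log2 fold change was 0.32, 0.20 and 0.16 in those classes. In the class with the fewest reads, 86 identifiers were at least 2-fold higher and 35 at least 2-fold lower. These numbers were 36 and 24 in the next class, and 24 and 16 in the class with the most reads. The upward excess of large changes was thus greatest where reads were fewest.

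Tested directly for a change larger than 1.5-fold (edgeR's test against a fold threshold, adjusted p under 0.05), 33 identifiers passed (0.354%). Of these, 21 rose (0.225%), with log2 fold changes from 1.204 to 2.87 and a median of 1.70. The other 12 fell (0.129%), with log2 fold changes from −3.97 to −1.52 and a median of −2.31. All 33 also passed the ordinary test in every fit that left out 1 library. The count beyond 1.5-fold was 14 without control 2, 15 without acclimated 2, and 20 without acclimated 1 or without acclimated 3. It was 25 without control 1 and went up to 42 without control 3. The excess of rises turned into an excess of falls in 4 of the 6 fits that left out 1 library. There were 8 rises and 17 falls without control 1, 4 and 10 without control 2, 8 and 12 without acclimated 1, and 7 and 8 without acclimated 2. The excess of rises remained without control 3 (33 rises and 9 falls) and without acclimated 3 (12 and 8). Only 7 identifiers, 1 that rose and 6 that fell, passed against a threshold of 2-fold.

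In reads, fewer identifiers made up most of the losses than of the gains, but the sets differ in size. The 108 that rose summed to 7889 CPM in control and 16885 CPM in acclimated flies, a gain of 8996 CPM, and 17 of them made up at least 50% of that gain. The 48 that fell summed to 11550 CPM in controls and 4369 CPM in acclimated flies, and 4 of them made up at least 50% of the loss. The 2 largest losses, those of FBgn0013068 and FBgn0210268, came to 35.7% of it, and the 2 largest gains came to 16.0% of the gain. Since 2 are a larger part of 48 than of 108, these shares do not show that losses were more concentrated than gains. Among the 21 that rose beyond 1.5-fold, the 2 largest gains came to 32.5%, and 4 identifiers made up at least 50%. Among the 12 that fell beyond it, the 2 largest losses came to 63.0%, and 2 identifiers made up at least 50%. These sums follow read number, so long and abundant transcripts weigh most in them.

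The 4 identifiers described next are 2 that rose and 2 that fell. They received the most reads among those that passed in all 6 fits that left out 1 library and whose groups did not overlap. The lack of overlap in them was thus a condition of choice. FBgn0207363 had 88.8, 143 and 199.9 CPM in controls 1, 2 and 3, from 159, 222 and 378 reads. It had 568, 481 and 481 CPM in acclimated libraries 1, 2 and 3, from 972, 859 and 1075 reads. The controls differed among themselves by more than the acclimated libraries did in relative terms, and the lowest acclimated library was far above the highest control, control 3. On average FBgn0207363 rose 3.54-fold, from 144 CPM (SD 55.5) to 510 CPM (SD 50.2, n = 3 in each group). The log2 fold change was 1.82, with a 95% interval of 1.34 to 2.31 (edgeR adjusted p = 0.00095).

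FBgn0207689 had 149.7, 179.7 and 158.6 CPM in the controls and 333, 463 and 346 CPM in the acclimated libraries. The controls lay close together, and acclimated 2 was the highest library. On average it rose 2.34-fold, from 163 CPM (SD 15.4) to 380.3 CPM (SD 71.8, n = 3 in each group). The log2 fold change was 1.23, with a 95% interval of 0.88 to 1.57 (edgeR adjusted p = 0.0014).

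FBgn0013068 had 1925, 2080.4 and 2482 CPM in the controls, from 3447, 3230 and 4695 reads. It had 927, 340.4 and 692 CPM in the acclimated libraries, from 1586, 608 and 1546 reads. Every acclimated library was below every control, and acclimated 2 was the lowest. On average it fell 3.31-fold, from 2163 CPM (SD 288) to 653 CPM (SD 295, n = 3 in each group). The log2 fold change was −1.73, with a 95% interval of −2.33 to −1.12 (edgeR adjusted p = 0.0055).

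FBgn0210268 had 1532, 1409 and 2191 CPM in the controls and 837, 598 and 542 CPM in the acclimated libraries. Control 3 was the highest library here too, and the groups did not overlap. On average it fell 2.60-fold, from 1711 CPM (SD 420.1) to 659 CPM (SD 157, n = 3 in each group). The log2 fold change was −1.38, with a 95% interval of −1.85 to −0.91 (edgeR adjusted p = 0.0053). Against the 1.5-fold threshold FBgn0207363 (edgeR adjusted p = 0.0089), FBgn0207689 (0.046) and FBgn0013068 (0.047) passed, and FBgn0210268 did not (0.067).

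**Figure D3:**
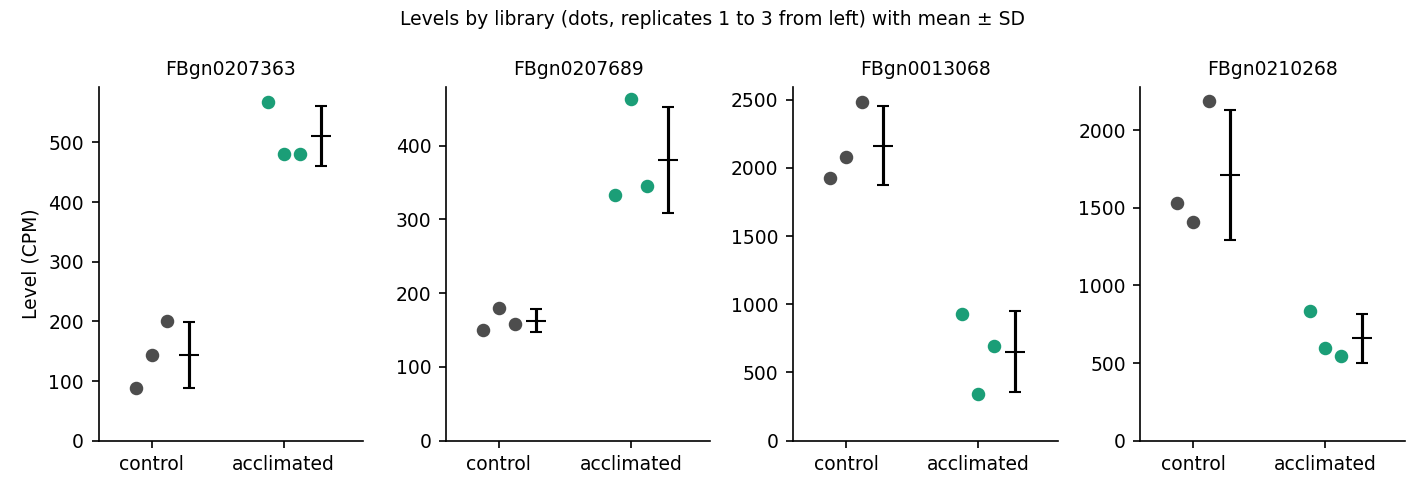
Levels in CPM (y axis, from 0) of 4 identifiers in control (grey) and acclimated (green) libraries, 1 dot per library, with the mean and SD (n = 3) at the right of each group. The groups do not overlap in any panel, which was a condition of choice. FBgn0013068 went from 2163 to 653 CPM and FBgn0207363 from 144 to 510 CPM.

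The 3 largest increases in the whole table did not pass, and each came from 1 library. They were chosen for description after their values had been seen. FBgn0204686 had 17.3, 9.66 and 18.5 CPM in the controls and 14.0, 621 and 15.7 CPM in acclimated libraries 1, 2 and 3. The log2 fold change of 3.81 had an SE of 1.09 (edgeR adjusted p = 0.11), and without acclimated 2 it was −0.04. FBgn0208306 behaved alike in the same library, with 4.23 to 18.4 CPM in the controls and 5.84, 311 and 5.37 CPM in the acclimated libraries. With an SE of 1.15, its log2 fold change was 3.44 (edgeR adjusted p = 0.18), against −0.79 without acclimated 2. FBgn0201359 was high in a different pool, with 3.22 to 6.70 CPM in the controls and 4.68, 4.48 and 145.5 CPM in the acclimated libraries. With an SE of 1.03, its log2 fold change was 3.27 (edgeR adjusted p = 0.15), against −0.25 without acclimated 3. In all 3 identifiers the other acclimated libraries lay within the range of the controls. The outcome of the test turned on the filter and on single libraries. With no expression filter all 3 passed (edgeR adjusted p = 0.0044, 0.019 and 0.014). FBgn0204686 and FBgn0208306 also passed without acclimated 3 (0.016 and 0.034), and FBgn0201359 without acclimated 2 (0.034) and with the replicate block (0.0499). DESeq2 gave none of them an adjusted p-value.

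Among identifiers that did not pass, 83 were at least 2-fold higher and 37 at least 2-fold lower in acclimated flies. For 63 of the 83 the acclimated libraries lay above all controls, against 9.53% of all tested identifiers, though the choice of large differences itself favours this. In 14 of the 83 a single acclimated library held more than 50% of the summed acclimated level, and in 8 of these it was acclimated 1. Acclimated 1 was the highest acclimated library for 43 of the 83, acclimated 2 for 27 and acclimated 3 for 13. The order was the same among the 108 that rose, where acclimated 1 was highest for 53, acclimated 2 for 38 and acclimated 3 for 17. The order over all tested identifiers is not given here, so it is not known to be particular to these sets.

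The number and direction of calls depended on single libraries. Without control 3 the count went from 156 to 285 identifiers, and 235 of these rose. This larger list held 141 of the 156. Without control 2 it was 72, with 36 in each direction, and 68 of these were among the 156. Without control 1 it was 140, of which 66 rose and 74 fell, so the excess of rises turned into an excess of falls. Without acclimated 1, 2 or 3 the count was 110, 101 or 113, with 73, 74 or 87 rises. Of the 108 that rose, 30 passed in all 6 fits that left out 1 library. Of the 48 that fell, 22 did.

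**Figure D4:**
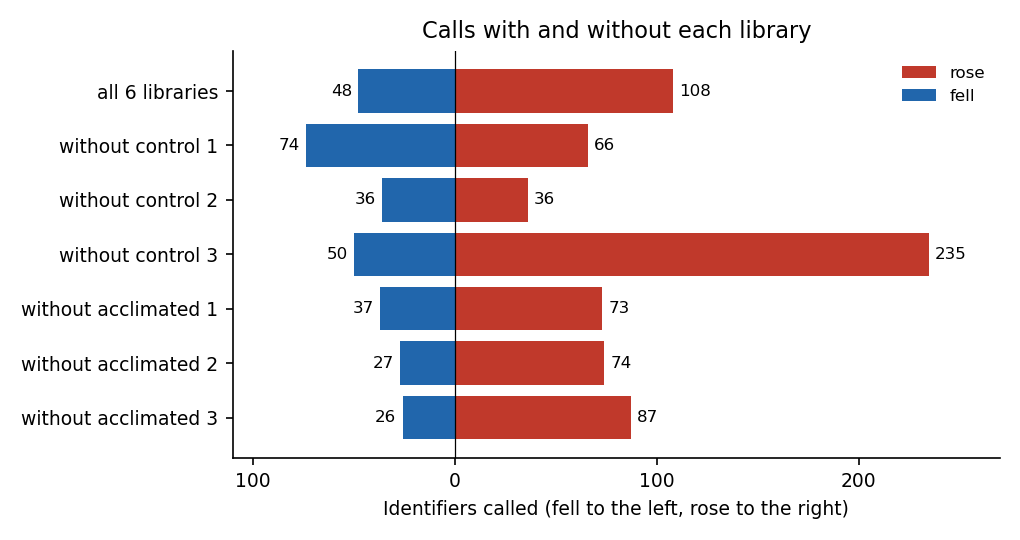
Number of identifiers called (x axis) that fell (blue, to the left) and rose (red, to the right) with all 6 libraries and without each library in turn (y axis). Rises range from 36 without control 2 to 235 without control 3, and falls from 26 without acclimated 3 to 74 without control 1.

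Each library was then placed by identifiers it had no part in choosing. Identifiers were called from the other 5 libraries, and the left-out library was given a position between their group means of log2 CPM, with 0 at the control mean and 1 at the acclimated mean. Identifiers chosen for a difference in some libraries differ less in another by selection alone, and each library has its own list, so positions are given as a description. Acclimated 2 had a median position of 0.974 over 101 identifiers, and 88 of them were on the acclimated side of the midpoint. Acclimated 3 was at 0.884 over 112 of the 113 identifiers called without it, 1 being below the read minimum with all 6 libraries, with 98 on the acclimated side, and acclimated 1 at 0.788 over 110, with 80. All acclimated libraries thus lay nearer to the acclimated mean of the others.

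Controls 1 and 2 lay nearer to the control mean, at 0.145 over 140 identifiers and 0.182 over 72. On the control side were 108 and 65 of these. Control 3 was halfway, at 0.474 over 285 identifiers, with 154 on the control side and the other 131 not. The halfway position was that of the rises. Over the 235 identifiers that rose without it, control 3 was at 0.510, and over the 50 that fell it was at −0.359, on the far side of the mean of the other controls. Control 1 showed the reverse, at −0.210 over the 66 that rose and 0.422 over the 74 that fell. Control 2 was at 0.059 and 0.249. The controls thus differed among themselves over the identifiers that separate the groups, and not in 1 direction. Within the groups as wholes the spread was alike, with a biological coefficient of variation of 15.8% in controls and 14.9% in acclimated libraries.

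**Figure D5:**
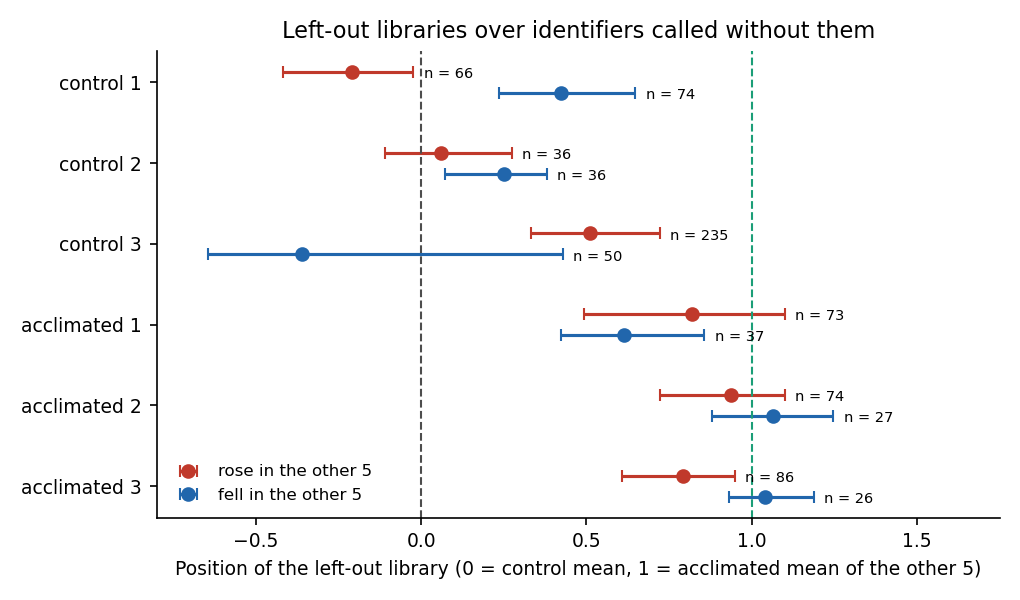
Median position (dot) and middle 50% (bar) of each left-out library (y axis) between the control mean (0) and the acclimated mean (1) of the other 5, over the n identifiers that rose (red) or fell (blue) without it. Control 3 is at 0.510 for rises and −0.359 for falls, and the acclimated libraries lie between 0.615 and 1.06.

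Other properties of the libraries were compared between the groups with exact two-sided permutation tests, in which 3 libraries against 3 cannot give a p below 0.10. The share of reads with more than 1 alignment was 18.9%, 19.1% and 19.0% in controls 1, 2 and 3 and 23.8%, 18.4% and 22.4% in acclimated libraries 1, 2 and 3 (exact permutation test, p = 0.40, adjusted over 3 read classes p = 0.40). The part of this share in the calls was not tested. The 20 identifiers with the most reads took 11.03% ± 1.07 of the gene reads in controls and 11.4% ± 1.30 in acclimated libraries (SD, n = 3 each, exact permutation test, p = 0.70). Thinned to 1518027 reads, 13399 ± 18.8 identifiers were detected per control library and 13523 ± 136 per acclimated library (SD, n = 3 each, exact permutation test, p = 0.30). Both differences were smaller than the SD of the acclimated libraries. Counting only identifiers with at least 5 reads after thinning, the difference was 156 with an acclimated SD of 114 (exact permutation test, p = 0.20), and without thinning 218 with an SD of 174 (p = 0.20). The difference of 124 at 1 read was 57.8 without acclimated 1 and 193 without acclimated 2.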

How the data were processed

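The files hold raw counts of reads for each gene identifier, as the authors deposited them, from HTSeq per the submitters' processing notes. How reads were aligned and counted, and against which build and annotation, is not given in the sources used here, so counts of near-identical and overlapping genes are uncertain. Each file ends in 5 counter lines, which stayed out of library sizes and tests. They held 73.6% to 76.9% of the reads in a file.

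Groups were compared across all genes with the quasi-likelihood test of edgeR 4.0.16 in R 4.3.3 on the deposited counts of the 6 D. montana libraries, with TMM scaling, the default filter (minimum count 10, minimum total 15) and Benjamini-Hochberg adjustment. CPM use TMM-scaled library sizes. Log2 fold changes are edgeR's, acclimated over control. SE is the unshrunken log2 fold change over the square root of F. The fits were tested on simulated data in which no single library stood apart, so effects of single libraries were not covered. Alternatives were other scalings and filters, a replicate block, DESeq2 1.42.0 and limma-voom 3.58.1.

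Members, lists and tests were chosen with earlier results of these data known. Reported identifiers are the 2 that rose and 2 that fell with the highest mean CPM among those called in every fit, without overlap between groups. The left-out positions and 3 more identifiers were added after their values had been seen. The 15 gene lists could not be matched, and 0 were tested.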

Additional observations from a re-analysis of the deposited data

How the results depend on the processing

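The count of 156 identifiers stayed within 1.5 times of its value with other scalings (168 to 186), a filter at 5 CPM (159), DESeq2 (191) and limma-voom (143), and 134 identifiers were called by edgeR, DESeq2 and limma-voom alike. With no expression filter it was 248, and the count beyond 1.5-fold was 50 instead of 33. Other thresholds gave 94 (1.2-fold) and 7 (2-fold). Leaving out 1 library gave 72 to 285 calls, and 14 to 42 beyond 1.5-fold. The cause was not tested. With the replicate block 155 identifiers passed, 132 of them among the 156. Deviations from the group means were negatively correlated between same-numbered libraries (r = −0.231, −0.119 and −0.129), and in these deviations no library correlated best with its own number. The deviations of a group are tied to each other through its mean. Whether same-numbered pools belong together therefore cannot be decided from them. The 4 identifiers chosen by the rule had to pass in the fits that left out 1 library, and passed in the 8 other alternatives too (adjusted p up to 0.0087). FBgn0204686, FBgn0208306 and FBgn0201359 ranged from −0.042 to 4.37, −0.79 to 4.32 and −0.25 to 3.79 when 1 library was left out. The share of reads outside genes was 1.3 percentage points lower in acclimated libraries (−1.3) but 0.57 higher without the reads aligned to more than 1 place. The difference in the share of the 20 identifiers with the most reads ranged from −0.315 to 0.991 percentage points. Scaling moved the median log2 fold change by −0.028 to 0.024. It put control 3 at 0.352 to 0.474 over all identifiers called without it, and at 0.403 to 0.510 over the rises. Both lowest positions came from library sizes without the 20 identifiers with the most reads. With that scaling 103 of the 161 rises were on the control side, so control 3 was less clearly halfway. Depth limits the 3105 identifiers with the fewest reads, 52.7% of which were held within 2-fold.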

Other observations

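Some identifiers had reads in 1 group alone. There were 279 with 0 reads in every control and at least 1 in an acclimated library, 40 of them with reads in all 3 acclimated libraries. In the other direction there were 178, of which 14 had reads in all 3 controls. None of these had enough reads to be tested: the most read of them had 14 reads in all, and 8 in the other direction. The acclimated libraries were on average deeper, and the part of depth in these counts was not tested.

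Identifiers with a number below 100000 are separated by a gap in the numbering from the bulk, which starts at 197335. Of 167 tested, 8 rose (4.79%, against 1.16% of all tested identifiers) and 1, FBgn0013068, fell (0.599%, against 0.515%). These shares were not tested against each other. Their median log2 fold change was −0.02, against −0.01 over all tested identifiers. Of the 8 that rose, only FBgn0062716 passed in all 6 fits that left out 1 library, against 30 of all 108 that rose. None of the 8 passed against the 1.5-fold threshold.

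Among tested identifiers, the 3105 with the fewest reads were more often higher than lower in acclimated flies (1754, 56.5%), while the next 3105 (45.1% higher) and the 3105 with the most reads (43.3% higher) were more often lower. The median log2 fold changes were 0.06, −0.04 and −0.04. The identifiers are not independent of each other, and no test was made of this split.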
